A study of Mus musculus with 12 samples.

Results

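Crebrf, Klhl24, Mturn, Fbxl20, Sun2, H1f10, Reep6 and Pdcd4 are 8 of the 18820 genes measured by array in mouse B lymphoma cells, chosen by their CHIR99021 differences on these same arrays: this GSK3 inhibitor changed each of them alike in cells with and without a B-cell receptor (BCR). Under CHIR99021, 7 of them were lower and Reep6 was higher. Each had 1 probe set. All cells came from primary cultures of lymphomas of l-MYC;B1-8f mice (strain C57BL/6J x BALB/c), which carry a MYC transgene and a BCR heavy chain gene that Cre can delete. Every culture, those without inhibitor included, had received TAT-Cre, a cell-permeable form of the recombinase, so the BCR-positive controls grew beside BCR-negative cells of their own lymphoma and are cells that kept the receptor. After 4 days without or with CHIR99021 both populations were sorted, and lymphomas 2564, 2646 and 2676 each gave 1 array to each of 4 groups: BCR-positive untreated, BCR-negative untreated, BCR-positive CHIR99021 and BCR-negative CHIR99021 (n = 3 per group, 12 arrays). The sources used here give no dose.

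GSK3 is a kinase that stays active in resting cells and is held back when the BCR signals through PI3K and AKT; in the Wnt pathway it marks β-catenin for destruction. CHIR99021 blocks its ATP-binding pocket, so inhibitor and receptor act on the same kinase. The 8 genes belong to no single pathway. Klhl24 and Fbxl20 encode adaptors that bring substrates to ubiquitin ligases, of the cullin-3 and the SCF type. Crebrf encodes a regulator of the transcription factor CREB3 and of the unfolded protein response, and Pdcd4 a tumour suppressor that binds the helicase eIF4A and slows cap-dependent translation. Sun2 is an inner nuclear membrane protein of the LINC complex, which couples the nucleus to the cytoskeleton, and H1f10 is a linker histone. Reep6 shapes membranes of the endoplasmic reticulum (ER), and Mturn (maturin) was first described in the differentiation of nerve cells.

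The arrays matched their BCR labels, and the treatment labels were not checked in this way. Ighv1-72, the variable segment in the deletable receptor gene, fell short of the BCR-positive signal in the BCR-negative cells of 6 of 6 co-cultures, at 7.92% to 38.2% of it. Of the B-cell markers, 7 of 8 were measured, up to 11.42 for Cd79b, with Ms4a1 the lowest at 3.24, against a median over genes of 5.13. The mean over these B-cell markers was 8.88 to 9.07 on untreated and 8.20 to 8.86 on treated BCR-negative arrays, lower with CHIR99021 and without overlap, and 8.72 to 9.19 and 8.14 to 8.90 on untreated and treated BCR-positive arrays, which overlapped. Means over the marker list on single arrays were 4.12 to 4.26 for T cells, 3.85 to 4.31 for NK cells, 3.98 to 5.14 for macrophages and monocytes and 4.54 to 4.68 for fibroblasts, and for each of these types the arrays overlapped between populations and between treatments. Of the macrophage and monocyte markers, Itgam (6.32) and Csf1r (6.27) lay above the median over genes, and Adgre1, Cd14 and Lyz2 below it (3.55, 3.61 and 3.76). Csf1r was at 0.95 ± 0.231 for CHIR99021 in BCR-positive cells and Itgam at 0.67 ± 0.185 for BCR loss, neither called. The erythroid mean (3 of 4 markers measured) was 4.51 to 4.57 on untreated BCR-negative arrays, above both the untreated BCR-positive arrays (4.34 to 4.46) and the treated BCR-negative arrays (4.35 to 4.47) without overlap; treated BCR-positive arrays were at 4.33 to 4.42. For CHIR99021 in BCR-negative cells limma called 3 single markers, Cd79b lower (-0.33 ± 0.0604), Epor lower (-0.35 ± 0.0729) and Lyz2 higher (0.46 ± 0.100), and it called none in the other comparisons. The part of these marker shifts in the CHIR99021 differences of both populations and in the BCR effect was not tested. In sorted bulk samples, a change in the make-up of the cells and a change in RNA per cell cannot be told apart.

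RefSeq promoter windows (GRCm38.p6) were found for 6 of the 8 genes, 7 windows in all, with Pdcd4 represented by 2; Klhl24 and Reep6 had none. The 250 bases before the start site were searched on both strands for GTAAACA (FOXO), CACGTG (E-box, the MYC site), CTTTGAT (TCF/LEF, the β-catenin partners), TGACGTCA (CREB), GGGCGG (GC box) and CCAAT. No member window held the FOXO or the TCF/LEF letters, which 3.17% and 3.21% of 32851 mouse windows hold. GC boxes were in 6 of 7 member windows against 32.7% of all windows, and CCAAT in 5 of 7 against 33.8%. The GC content of the member windows was 52.8% to 77.6%, against a median of 52.4% over all windows. The windows of Crebrf and Mturn are shown because they were the members with an E-box (6.02% of all windows) and with a CREB motif (1.55% of all windows). Capitals mark the motif matches, 2 E-boxes in Crebrf (chr17:26715400-26715649, plus strand) and 2 CREB motifs in Mturn (chr6:54681374-54681623, plus strand), with GC boxes and CCAAT or its reverse complement in both. A match describes letters only.
Crebrf: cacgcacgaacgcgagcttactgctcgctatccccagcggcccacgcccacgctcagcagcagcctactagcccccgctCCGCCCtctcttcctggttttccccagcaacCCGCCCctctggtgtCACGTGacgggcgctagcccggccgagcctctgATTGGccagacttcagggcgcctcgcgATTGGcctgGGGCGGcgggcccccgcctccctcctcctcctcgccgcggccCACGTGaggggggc
Mturn: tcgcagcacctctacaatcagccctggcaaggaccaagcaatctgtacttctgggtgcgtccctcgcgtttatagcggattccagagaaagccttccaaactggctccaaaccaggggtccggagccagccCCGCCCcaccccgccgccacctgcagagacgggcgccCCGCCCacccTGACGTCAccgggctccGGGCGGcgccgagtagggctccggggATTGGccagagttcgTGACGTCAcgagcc

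The CHIR99021 differences below chose the members, so they are given as a description, without a test. Values are log2 signals, and differences are means over the 3 lymphomas ± the standard error (SE) of the fit.

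The ligase adaptor Klhl24 had the largest difference averaged over both populations. Without inhibitor, the log2 signal of Klhl24 was 8.99, 8.94 and 9.37 in BCR-positive cells of lymphomas 2564, 2646 and 2676, and 9.44, 10.20 and 10.09 in their BCR-negative partners. With CHIR99021 it was 6.40, 7.48 and 7.71 (BCR-positive) and 7.01, 8.42 and 8.92 (BCR-negative). Treated and untreated arrays of a population did not overlap, and lymphoma 2564 was lowest after treatment in both populations. The mean difference was -1.90 ± 0.258 with and -1.79 ± 0.258 without the receptor, 3.74-fold and 3.46-fold lower. Single lymphomas ranged from -1.17 in BCR-negative cells of 2676 to -2.59 in BCR-positive cells of 2564.

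Fbxl20, the SCF adaptor, had a smaller difference with less spread. Fbxl20 read 8.07, 7.61 and 7.94 on the untreated BCR-positive arrays of 2564, 2646 and 2676 and 8.31, 8.36 and 8.67 on the untreated BCR-negative arrays. After CHIR99021 the readings were 6.86, 6.69 and 6.93 and 6.87, 6.88 and 7.64. Untreated and treated values of each population were separate, and the treated BCR-negative array of 2676 lay above the other treated arrays. On average Fbxl20 was 2.06-fold lower in BCR-positive cells (-1.04 ± 0.141) and 2.50-fold lower in BCR-negative cells (-1.32 ± 0.141). The range over lymphomas was -0.91 to -1.48, both ends in lymphoma 2646.

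The stress regulator gene Crebrf had the largest difference among genes lower in BCR-negative cells. BCR-positive cells of 2564, 2646 and 2676 had log2 signals of 6.85, 6.47 and 7.27 untreated and 4.92, 5.38 and 5.91 with CHIR99021 for Crebrf. Those of BCR-negative cells were 7.40, 7.91 and 8.13 untreated and 5.24, 5.99 and 6.57 with the inhibitor. Within each population no treated array reached an untreated one, and treated arrays of 2564 were the lowest. Crebrf differed by -1.46 ± 0.181 in BCR-positive and by -1.88 ± 0.181 in BCR-negative cells, which is 2.75-fold and 3.67-fold lower. In each lymphoma the difference was larger in BCR-negative cells: -2.15 against -1.93 in 2564, -1.92 against -1.09 in 2646, and -1.56 against -1.36 in 2676.

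Pdcd4, the translation inhibitor, was lower by about the same amount in BCR-positive cells of each lymphoma. For Pdcd4, the log2 signals of 2564, 2646 and 2676 were 10.42, 9.39 and 10.05 in untreated BCR-positive and 10.75, 10.55 and 10.27 in untreated BCR-negative cells. The treated counterparts gave 9.34, 8.31 and 8.83 and 9.55, 8.79 and 9.38. The groups with and without inhibitor were separate in both populations, with 2646 lowest in 3 of the 4 groups. The fitted differences were -1.13 ± 0.166 (BCR-positive) and -1.28 ± 0.166 (BCR-negative), or 2.19-fold and 2.43-fold lower. Its differences in BCR-positive cells spanned -1.08 to -1.22, while BCR-negative cells ran from -0.88 in 2676 to -1.75 in 2646. In BCR-positive cells Pdcd4 lay just outside the usual threshold of the fit, with Klhl24 and Fbxl20 just inside. That contrast chose the members, so this describes the choice and is not a test.

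Of the nuclear proteins, Sun2 had the smallest difference of the 8. Without inhibitor, the log2 signal of Sun2 was 7.34, 7.34 and 7.31 in BCR-positive cells of lymphomas 2564, 2646 and 2676, and 7.87, 7.87 and 7.57 in their BCR-negative partners. With CHIR99021 it was 6.75, 6.76 and 6.39 (BCR-positive) and 6.85, 7.15 and 6.84 (BCR-negative). The SD of the untreated BCR-positive arrays was 0.0185 (n = 3), and no treated array overlapped its untreated group. The mean difference was -0.69 ± 0.0857 with and -0.82 ± 0.0857 without the receptor, 1.61-fold and 1.77-fold lower. In 2676 the difference was larger in BCR-positive cells (-0.91 against -0.73), and in 2564 and 2646 it was larger in BCR-negative cells.

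H1f10, the linker histone, differed more between lymphomas than between treatments. H1f10 read 6.00, 8.31 and 8.14 on the untreated BCR-positive arrays of 2564, 2646 and 2676 and 6.03, 8.92 and 8.52 on the untreated BCR-negative arrays. After CHIR99021 the readings were 4.85, 7.49 and 7.15 and 5.25, 7.62 and 7.57. All 4 arrays of 2564 lay below all 8 of the other lymphomas, so treated and untreated groups overlapped, although treatment lowered the signal within each lymphoma. On average H1f10 was 1.98-fold lower in BCR-positive cells (-0.99 ± 0.100) and 2.02-fold lower in BCR-negative cells (-1.01 ± 0.100). The range was -0.78 to -1.30, both ends in BCR-negative cells.

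Reep6, the ER-shaping gene, was the member with higher signal under the inhibitor. BCR-positive cells of 2564, 2646 and 2676 had log2 signals of 8.94, 6.86 and 7.43 untreated and 9.90, 7.63 and 8.46 with CHIR99021 for Reep6. Those of BCR-negative cells were 8.54, 6.38 and 6.94 untreated and 9.84, 7.49 and 7.71 with the inhibitor. Lymphoma 2564 was the highest on all 4 arrays, the reverse of its place for H1f10, and the groups overlapped across lymphomas while each lymphoma was higher with CHIR99021. Reep6 differed by 0.92 ± 0.118 in BCR-positive and by 1.06 ± 0.118 in BCR-negative cells, which is 1.89-fold and 2.09-fold higher. Single lymphomas ranged from 0.77 to 1.30.

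Mturn, the gene for maturin, had groups that were almost wholly separate. For Mturn, the log2 signals of 2564, 2646 and 2676 were 5.76, 5.93 and 6.19 in untreated BCR-positive and 7.31, 7.61 and 7.41 in untreated BCR-negative cells. The treated counterparts gave 4.45, 4.95 and 4.996 and 5.31, 5.69 and 5.92. The 4 groups did not overlap except that treated BCR-negative cells (up to 5.92) overlapped untreated BCR-positive cells (from 5.76). The fitted differences were -1.16 ± 0.0974 (BCR-positive) and -1.80 ± 0.0974 (BCR-negative), or 2.23-fold and 3.49-fold lower. It was larger in BCR-negative cells of all 3 lymphomas, most in 2646 (-1.92 against -0.98).

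**Figure D1:**
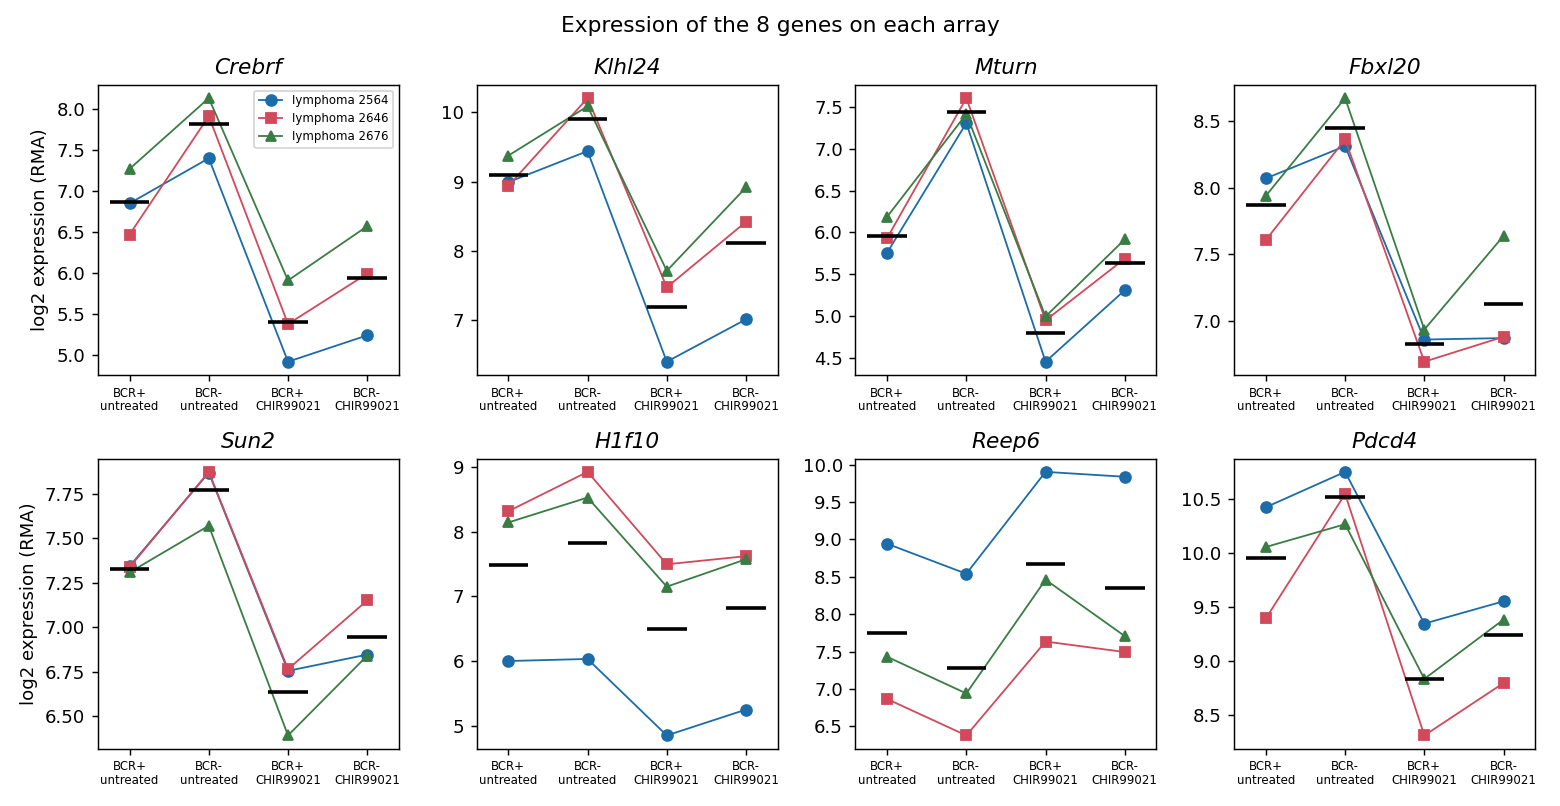
Log2 expression (RMA) of the 8 genes on each of the 12 arrays; colours and symbols are lymphomas 2564, 2646 and 2676, lines join arrays of a lymphoma, and black bars are group means (n = 3). Each lymphoma follows 1 order in 7 genes, untreated BCR-negative, untreated BCR-positive, treated BCR-negative, treated BCR-positive from high to low, and the reverse order in Reep6.

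Across the 8 genes, 48 of 48 differences (8 genes, 3 lymphomas, both populations) ran in the direction of the gene's mean. The difference was larger in BCR-negative cells in 17 of 24 gene and lymphoma combinations. Over all genes the median size was also larger in BCR-negative cells (0.072 against 0.060). The combinations come from 3 lymphomas and are not separate observations, and their share over all genes was not computed. The size differed most between populations for Mturn (-0.65 ± 0.138, BCR-negative minus BCR-positive difference) and Crebrf (-0.42 ± 0.256), and least for H1f10 (-0.03 ± 0.141) and Klhl24 (0.11 ± 0.365); for Klhl24 and H1f10 it was larger in BCR-negative cells in 1 of 3 lymphomas. Over all genes limma called 0 for that difference between populations (990 at an unadjusted p under 0.05). The median size of the CHIR99021 difference for the 8 was 1.09 (BCR-positive) and 1.30 (BCR-negative), against 0.06 and 0.07 over all genes, which restates how they were chosen.

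**Figure D2:**
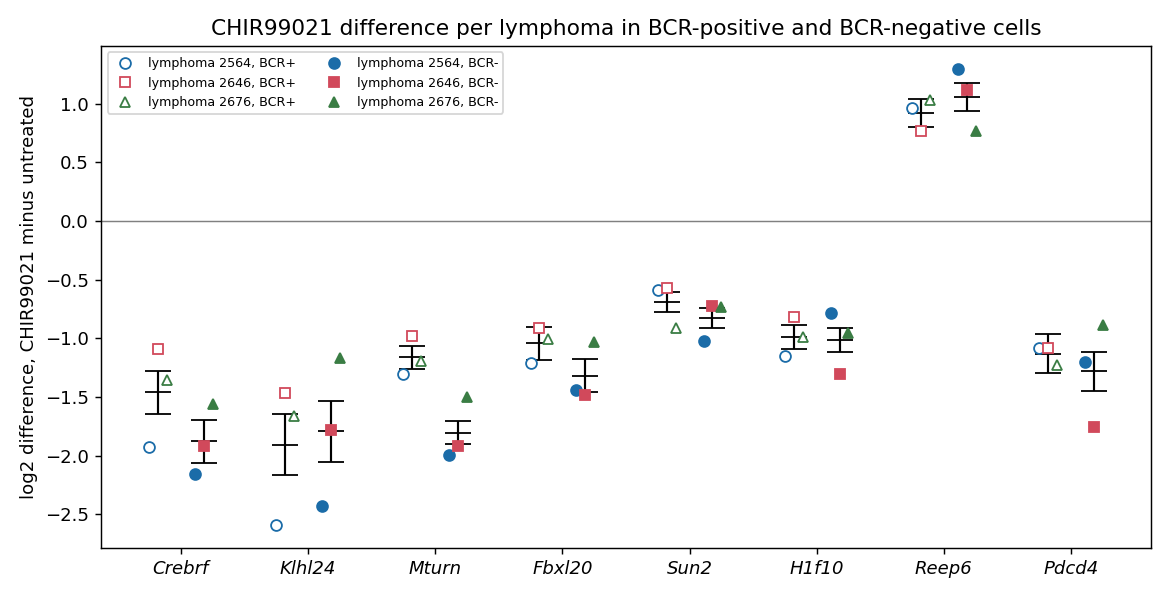
Log2 difference, CHIR99021 minus untreated, for each gene in each lymphoma, in BCR-positive (open) and BCR-negative (filled) cells; black bars are the mean ± SE of the fit (n = 3 lymphomas). All points of 7 genes lie below 0 and all points of Reep6 above it.

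In BCR-positive cells limma called 14 genes for CHIR99021 (0.0744% of all), 7 of the 8 members among them; 6 members are of those lower (0.0691% of all genes) and 1 of those higher (0.00531%). In BCR-negative cells it called 692 (3.68% of all), with 7 members lower (1.76% of all genes) and 1 higher (1.91%). These contrasts chose the members and nothing is read from the counts. Subtraction of array medians turned the 360 higher and 332 lower genes of BCR-negative cells into 836 and 253, and cyclic loess into 232 and 415. The genes called in both populations numbered 13, which is 92.9% of those called in BCR-positive and 1.88% of those called in BCR-negative cells, and 7 are members. The other 6 were all lower: Pik3cg, a PI3K catalytic subunit (-1.04 ± 0.136 with and -1.22 ± 0.136 without the receptor), the ubiquitin ligase gene Fbxo32 (-0.65 ± 0.0831 and -0.97 ± 0.0831), Frat1, which encodes a GSK3-binding protein (-0.79 ± 0.0991 and -0.91 ± 0.0991), the autophagy adaptor gene Tax1bp1 (-0.51 ± 0.0588 and -0.55 ± 0.0588), the Rab GTPase regulator Tbc1d15 (-0.47 ± 0.0590 and -0.46 ± 0.0590) and the calcium channel subunit gene Cacna2d4 (-0.56 ± 0.0785 and -0.41 ± 0.0785). Foxc1 was the 1 gene called in BCR-positive cells alone, and limma did not call the difference between populations for it. Klhl24 ranked 1 by size among all genes lower in BCR-positive cells, and Crebrf ranked 1 in BCR-negative cells, while Sun2 ranked 53 and 91.

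Loss of the BCR moved the 8 genes the other way from the inhibitor. Averaged over cultures without and with CHIR99021, the 7 genes that were lower under CHIR99021 rose in BCR-negative cells, and Reep6 fell. This average is balanced over treatment and so was not used to choose the genes, although it draws on the same arrays and the same residual spread. All 8 members were called, where over all 18820 genes limma called 1247 (6.63%), 596 higher (3.17%) and 651 lower (3.46%), and the median size of the effect was 0.46 for the 8 genes and 0.06 over all. Of the other 6 genes called for CHIR99021 in both populations, 4 were called higher with BCR loss as well. They were Pik3cg (0.58 ± 0.0962), Fbxo32 (0.52 ± 0.0588), Cacna2d4 (0.34 ± 0.0555) and Tax1bp1 (0.24 ± 0.0416). Tbc1d15 (0.11 ± 0.0417) and Frat1 (-0.14 ± 0.0701) were not called, and Frat1 lay in the direction of the inhibitor. The residual SD of the members lay between the 68.6th and 99.1st percentile of all genes, above the median for each of the 8. Their mean signals lay between the 56.9th and 91.9th percentile, while the background of all genes includes dim genes. The median sizes were not compared with those of genes of like signal. Subtraction of array medians turned the 596 and 651 into 431 higher and 1594 lower, and cyclic loess into 664 and 394; all 8 members were called under both.

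Mturn rose most, by 1.16 ± 0.0689 (2.24-fold, limma adjusted p = 0.000330). The BCR-negative minus BCR-positive difference was 1.55, 1.67 and 1.23 in untreated cultures of 2564, 2646 and 2676 and 0.85, 0.74 and 0.92 with CHIR99021. All 3 untreated differences were above all 3 treated ones. Of the ligase adaptors, Klhl24 rose by 0.86 ± 0.182 (1.82-fold, limma adjusted p = 0.0291) and Fbxl20 by 0.44 ± 0.0998 (1.36-fold, limma adjusted p = 0.0350). Klhl24 was higher by at least 0.45 in every culture, whereas Fbxl20 was level in treated 2564 (0.01) and highest in untreated 2646 (0.76).

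Crebrf rose by 0.74 ± 0.128 (1.67-fold, limma adjusted p = 0.0165), from 0.32 in treated 2564 to 1.44 in untreated 2646. Pdcd4 rose by 0.49 ± 0.117 (1.40-fold, limma adjusted p = 0.0398), with the untreated culture of 2646 (1.15) apart from the other 5 (0.21 to 0.55). Sun2 rose by 0.37 ± 0.0606 (1.30-fold, limma adjusted p = 0.0136), between 0.09 and 0.54. H1f10 rose by 0.33 ± 0.0707 (1.26-fold, limma adjusted p = 0.0308), between 0.03 and 0.61. Reep6 fell, at -0.39 ± 0.0838 (1.31-fold, limma adjusted p = 0.0306), from -0.07 in treated 2564 to -0.75 in treated 2676. In all, 48 of 48 differences had the sign of their gene's mean, which is taken from the same differences. They come from the same few lymphomas and from genes that follow each other, so they are not separate observations. The share of all genes with the same sign in every co-culture was not computed, so the count is a description.

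By culture, the BCR-negative minus BCR-positive difference was 1.48 ± 0.0974 untreated and 0.84 ± 0.0974 with CHIR99021 for Mturn, 0.95 ± 0.181 and 0.53 ± 0.181 for Crebrf, and 0.81 ± 0.258 and 0.92 ± 0.258 for Klhl24. These differences share arrays with the CHIR99021 differences and are not tested. Over all genes limma called 791 for the BCR in untreated cultures and 3 in cultures with CHIR99021. In 24 of 24 gene and lymphoma combinations treated BCR-negative cells lay beyond untreated BCR-positive cells in the direction of the inhibitor, which the choice of genes with large CHIR99021 differences favours and which is given as a description. Treated BCR-negative minus untreated BCR-positive was -0.32 ± 0.0974 in Mturn and -0.38 ± 0.0857 in Sun2, the closest to 0, and -0.98 ± 0.258 in Klhl24 and -0.93 ± 0.181 in Crebrf, the farthest. Across lymphomas, the raw ranges of these 2 groups were separate for Klhl24 and Sun2 and overlapped for the other 6. The share of all genes with separate ranges was not computed, so this describes the arrays only.

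The calls for the BCR depended on the lymphomas and on the pairing, for the members and over all genes alike. Over all genes limma called 1247, against 1 to 1843 with a lymphoma left out (fewest without 2646) and 6 without the lymphoma block. Leaving out a lymphoma also leaves fewer arrays. Without 2564, 7 of 8 members were called, Pdcd4 not (limma adjusted p = 0.0504); without 2646 none was (adjusted p = 0.0682 to 0.293, effects of 0.310 to 1.14 in size, 2602 of all genes at an unadjusted p under 0.05), and without 2676 only Mturn (adjusted p of the 8 from 0.00635 to 0.290). Single arrays were also left out, in the order untreated BCR-positive, untreated BCR-negative, treated BCR-positive, treated BCR-negative. Members called were then 7, 8, 8 and 7 for 2564, 3, 4, 2 and 3 for 2646, and 2, 5, 2 and 3 for 2676. Over all genes the calls ran from 241 to 1583 with an array left out. Without the lymphoma block Mturn alone was called, with a random block Mturn and Sun2, and with a block for each co-culture 6 of 8, without H1f10 and Pdcd4 (highest adjusted p = 0.0541). Mturn was thus lost only without 2646 (adjusted p = 0.0682).

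**Figure D3:**
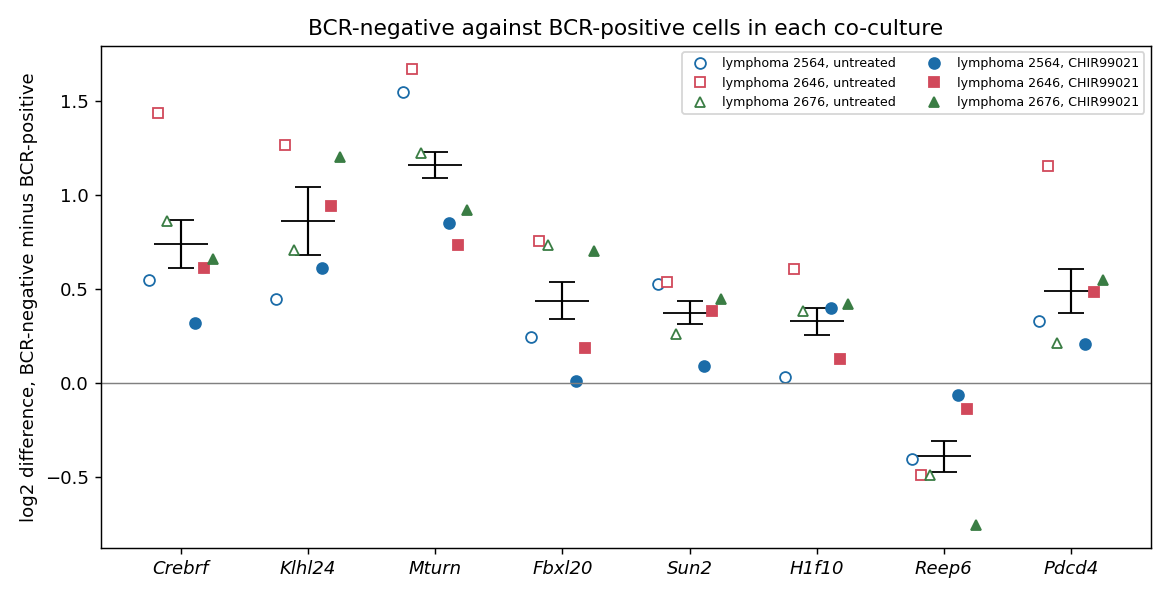
Log2 difference, BCR-negative minus BCR-positive, for each gene in each co-culture, untreated (open) or with CHIR99021 (filled); black bars are the average BCR effect ± SE (limma, n = 3 lymphomas). All 6 points of 7 genes lie above 0, with Fbxl20 at 0.01 and H1f10 at 0.03 in lymphoma 2564 nearest to it, and all 6 of Reep6 below it.

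Levels set the lymphomas apart most for H1f10 and Reep6. The mean over the 4 arrays of a lymphoma was 5.53 for H1f10 in 2564, 8.09 in 2646 and 7.85 in 2676, and for Reep6 it was 9.31, 7.09 and 7.63. The gap between the highest and lowest lymphoma was 2.55 in H1f10 and 2.22 in Reep6, and between 0.25 (Sun2) and 1.06 (Klhl24) in the other 6 genes. In 2564, where both stood apart, the CHIR99021 difference was -1.15 and -0.78 for H1f10 in BCR-positive and BCR-negative cells, and 0.96 and 1.30 for Reep6.

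Genes related to the members by family or pathway, and β-catenin target genes, were called about as often as all genes. The FOXO list, given below, was called more often and is left out of these counts. Of 110 genes in the other 8 lists, 7 were called for the BCR (6.36% against 6.63% of all genes). For CHIR99021, 5 were called in BCR-negative cells (4.55% against 3.68%) and 0 in BCR-positive cells (against 0.0744%). Medians for CHIR99021 in BCR-positive and BCR-negative cells, and for the BCR, are set beside 0.00, 0.01 and 0.00 over all genes. Of 26 cullin-3 and KLHL genes (medians 0.03, 0.07, 0.00) Klhl6, a B-cell adaptor, fell with CHIR99021 in BCR-negative cells (-0.74 ± 0.142, limma adjusted p = 0.0267) and rose with BCR loss (0.69 ± 0.101, adjusted p = 0.00981); its difference in BCR-positive cells was -0.69 ± 0.142 (adjusted p = 0.114). Klhl2 rose with CHIR99021 in BCR-negative cells (0.38 ± 0.0792) and Klhl42 with BCR loss (0.22 ± 0.0562). Of 18 SCF and FBXL genes (medians -0.03, -0.02, 0.02) the S-phase adaptor Skp2 rose in treated BCR-negative cells (0.40 ± 0.0701), and Fbxl5 (0.30 ± 0.0766) and Fbxl12 (0.51 ± 0.124) rose with BCR loss.

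Of 13 CREB3 and unfolded protein response genes (medians 0.03, 0.03, 0.01) 1 fell, the ER degradation gene Herpud1 (-0.46 ± 0.0853 with CHIR99021 in BCR-negative cells, limma adjusted p = 0.0250), and Creb3l1 was at 0.19 ± 0.0562 there without passing. None of 12 translation initiation genes was called for any of the 3 (medians 0.02, 0.03, -0.03); Btrc, which encodes the ligase adaptor that degrades PDCD4 protein, was at -0.35 ± 0.0802 and -0.24 ± 0.0802, and the cap-binding gene Eif4e at 0.08 ± 0.0799 and 0.22 ± 0.0799. Of 12 LINC and lamina genes (medians -0.05, -0.01, -0.04) the nesprin gene Syne2, a partner of SUN proteins, rose with BCR loss (0.49 ± 0.108, limma adjusted p = 0.0329) and none was called for CHIR99021, Tmpo (-0.19 ± 0.0546 in BCR-positive cells) and Tor1a (0.31 ± 0.0888 in BCR-negative cells) included. Of 7 linker histone genes (medians -0.04, -0.06, 0.01) H1f2 rose with BCR loss (0.63 ± 0.142, limma adjusted p = 0.0339); H1f3 (-0.56 ± 0.174 and -0.65 ± 0.174) and H1f6 (-0.71 ± 0.182 and -0.45 ± 0.182) did not pass for CHIR99021. Of 13 ER-shaping genes (medians 0.00, 0.09, -0.05) Ckap4, a protein of ER sheets, fell with BCR loss (-0.61 ± 0.0904, limma adjusted p = 0.0103), and Rtn2 (0.18 ± 0.0661 in BCR-positive cells) did not pass.

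Of 9 β-catenin target genes (medians 0.02, 0.01, 0.00) the ubiquitin ligase gene Znrf3 rose with CHIR99021 in BCR-negative cells (0.28 ± 0.0613, limma adjusted p = 0.0401) and was at 0.41 ± 0.0613 in BCR-positive cells (adjusted p = 0.0539). Lgr5 was at -0.79 ± 0.270 and -0.93 ± 0.270 without passing. FOXO factors and their targets were the list with called genes in all 3 comparisons. In BCR-positive cells this was Fbxo32 alone, named above among the genes called in both populations. The lists were chosen with earlier results of these data known. Of 20, CHIR99021 lowered 1 in BCR-positive cells and 6 in BCR-negative cells, where 0.0691% and 1.76% of all genes were lower, and with BCR loss 11 rose and 1 fell, where 3.17% and 3.46% of all genes did (medians -0.22, -0.47, 0.43). With CHIR99021 in BCR-negative cells these were Pik3ip1, a PI3K inhibitor (-1.17 ± 0.128), the cyclin gene Ccng2 (-1.03 ± 0.172), Trp53inp1 (-0.98 ± 0.145), Fbxo32, Irs2 (-0.76 ± 0.169) and the cell cycle inhibitor gene Cdkn1b (-0.49 ± 0.111). With BCR loss, the same 6 rose, by 0.95 for Pik3ip1, 0.69 for Ccng2, 0.72 for Trp53inp1, 0.52 for Fbxo32, 0.84 for Irs2 and 0.43 for Cdkn1b, as did Klf6 (0.98 ± 0.196), Klf2 (0.63 ± 0.155), Txnip (0.63 ± 0.0823), Foxo1 itself (0.42 ± 0.0925) and Sesn3 (0.35 ± 0.0493), while the repressor gene Bcl6 fell (-0.51 ± 0.0992).

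**Figure D4:**
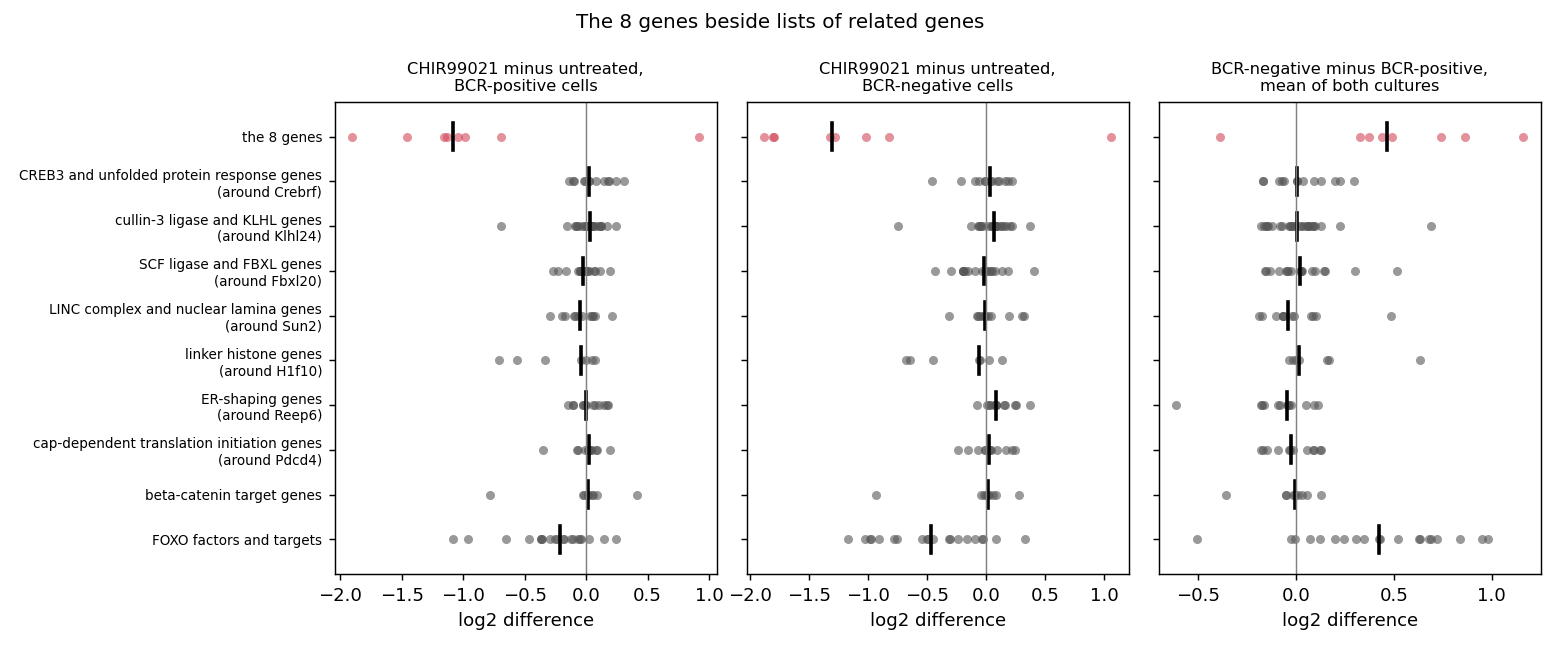
Log2 differences of the 8 genes (red) and of 9 gene lists (grey, each point a gene, members left out). Black lines are medians. The left and middle panels show CHIR99021 minus untreated in BCR-positive and BCR-negative cells, the right panel the average BCR effect; the FOXO list has medians of -0.22, -0.47 and 0.43, and the medians of the other lists lie between -0.05 and 0.09.

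The 8 genes followed each other closely within lymphomas. After subtraction of each lymphoma's mean, the size of Pearson's r over the 12 arrays ran from 0.912 to 0.992 (median 0.963) over the 28 pairs of members, which is a description, since genes chosen for the same treatment difference share it. The non-members most like the mean of the 8 (Reep6 turned) were Tax1bp1 (r = 0.995), the sphingomyelin synthase gene Sgms1 (0.988), the mitophagy kinase gene Pink1 (0.985), the phosphoinositide phosphatase gene Inpp5k (0.984) and Kdsr, an enzyme of sphingolipid synthesis (0.983). By member, the most alike were Tax1bp1 and Inpp5k for Crebrf (0.990 and 0.986), Pafah1b3 and Cdk19 for Klhl24 (0.985 and 0.983), Amigo1 and Tmc8 for Mturn (0.992 and 0.982), and Tax1bp1 and Kdsr for Fbxl20 (0.984 and 0.980). For Sun2 they were Casp2 and Rsbn1l (0.989 and 0.986), for H1f10 Tax1bp1 and Ccndbp1 (0.989 and 0.979), for Reep6 Tspan4 and Elovl1 (0.986 and 0.983), and for Pdcd4 Inpp5k and Stx5a (0.988 and 0.981). Of these, Tax1bp1 was at -0.51 and -0.55 for CHIR99021 in BCR-positive and BCR-negative cells, against -0.69 and -0.82 for Sun2, the smallest of the members.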

How the data were processed

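RNA of 12 sorted samples was measured on Affymetrix mouse gene arrays. The authors deposited log2 values for probe sets; RMA and Affymetrix Power Tools are named in the submitters' processing notes, without version or settings. Of 35556 probe sets, 21218 had 1 gene symbol in the platform annotation, 1881 several and 12457 none. The probe set with the highest mean stood for a gene, which gave 18820 genes. All arrays entered 1 linear fit with terms for group and lymphoma, leaving 6 residual degrees of freedom (limma 3.58.1, R 4.3.3), with eBayes and Benjamini-Hochberg adjustment over all genes; genes with an adjusted p under 0.05 were called. The average BCR effect is the mean of both BCR-negative groups minus that of both BCR-positive groups. Lymphoma was a block because the series design gives both populations of a lymphoma a shared culture; deviations from group means correlated at r of 0.813 to 0.907 within lymphomas (18 pairs). The block takes level differences between the 3 lymphomas out of the p-values. What remains is how unevenly group differences repeated from lymphoma to lymphoma, taken as 1 residual for all 4 groups and moderated by eBayes. The untreated and treated co-cultures of a lymphoma thus counted separately in the average BCR effect. The number of arrays limits the precision.

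The members, gene lists and tests were chosen with earlier results of these data known. The named genes were the 8 members, the other genes called for CHIR99021 in both populations, called genes of 9 fixed lists or else the 2 with the smallest p, and the non-members of most similar profile. Promoter sequences are from RefSeq (GRCm38.p6). The fit was tested on simulated data. Alternatives were other blocks, a dim filter (30th percentile), the mean of probe sets, 2 rescalings, trend and robust, and leaving out lymphomas or arrays.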

Additional observations from a re-analysis of the deposited data

How the results depend on the processing

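The 8 genes kept their sign for the average BCR effect and for both CHIR99021 effects under all 23 alternatives. For other blocks and for leaving out a lymphoma, this follows from a single sign in all lymphomas. The calls over all genes moved with the settings; unless a sentence names a cause, the cause was not tested. For the average BCR effect limma called 1247 genes, 6 without the lymphoma block (no replicate block), 137 with a random block and 2025 after subtraction of array medians. For CHIR99021 in BCR-negative cells it called 692, and 3, 81 and 1089 under the same settings. For CHIR99021 in BCR-positive cells it called 14, and 0 without the block (411 at an unadjusted p under 0.05), 1 with a random block, 2 after subtraction of array medians, 9 after cyclic loess, 33 with a finer block, 23 with dim genes left out and 33 with trend and robust. Leaving out a lymphoma or an array gave 1 to 1843, 0 to 840 and 0 to 38 genes, in the order named. Lymphomas 2564, 2646 and 2676 gave 1843, 1 and 11 genes for the BCR when left out, 113, 0 and 175 for CHIR99021 in BCR-negative cells, and 1, 0 and 0 in BCR-positive cells, fewer samples being part of each. With 3 lymphomas, smaller differences than those called could not be resolved.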
